A study of Mus musculus with 10 samples.

Results

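Metallothioneins are small cysteine-rich proteins that bind zinc, copper and cadmium ions through their cysteines. Mt1 and Mt2 are expressed in most tissues and are induced by zinc and other metals, through the metal-responsive transcription factor Mtf1, and by glucocorticoids, oxidants and inflammatory cytokines. Mt4 is a family member of stratified squamous epithelia, described in the differentiating layers of the epidermis and the tongue. The genes described here are Mt1, Mt2 and Mt4, which were chosen by symbol and with earlier results of the same libraries in view. They are 3 of the 9779 genes present in both deposited expression tables of the series, and all 3 passed the filter on low counts that left 5245 genes. Mt3, the brain-enriched member whose gene lies between Mt4 and Mt2, was not analysed here.

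The series holds 10 RNA-seq libraries of ear skin from C57BL/6 mice aged 6 to 8 weeks. In 4 libraries the skin had received imiquimod, an agonist of the receptor Tlr7 that causes psoriasis-like inflammation, together with benzamil, an amiloride derivative that blocks the epithelial sodium channel. In 4 libraries it had received imiquimod together with the vehicle DMSO, and the remaining 2 libraries came from untreated skin. Treatment was topical and lasted 6 days. The design text names the back as the untreated site while the labels say ear, so body site and treatment cannot be told apart in any comparison with untreated skin. Imiquimod and DMSO cannot be told apart there either, since no library had only one of them. No label says that libraries of a group came from different animals, so errors and p-values measure only the spread between these libraries. The groups are called benzamil, DMSO and untreated below.

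Read numbers were recovered exactly from the deposited values. Library totals were 138440 to 375455 reads for benzamil, 259262 to 935714 for DMSO, and 74614 and 71144 for untreated skin. Levels are given as CPM, counts per 1000000 reads on the 5245 genes tested, with library sizes scaled by edgeR's TMM factors. The libraries were made from 3' ends, so a level is not divided by gene length, and levels of different genes are not compared. The share of reads on ribosomal RNA genes was 31.0 to 45.7% in benzamil, highest in benzamil 3, 22.1 to 28.8% in DMSO, and 34.2 and 38.6% in untreated skin, so the treated groups did not overlap in it. A single read was worth 1.04 CPM in the deepest library, DMSO 1, and 14.8 CPM in the shallowest, untreated 2. Benzamil libraries 3 and 4 were the shallowest treated ones. Summed levels of 8 basal keratinocyte markers were 15219 to 17901 CPM in benzamil, 15482 to 19791 CPM in DMSO and 11791 to 13635 CPM in untreated skin, so the labelled tissue carried its epidermal markers in every library. Of 4 endothelial markers, 0 were in both tables.

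The coding sequences show what the 3 genes share. Each is given 5′ to 3′ from GENCODE M21 on GRCm38 (mm10), with the cysteine codons TGC and TGT in capitals.
Mt4: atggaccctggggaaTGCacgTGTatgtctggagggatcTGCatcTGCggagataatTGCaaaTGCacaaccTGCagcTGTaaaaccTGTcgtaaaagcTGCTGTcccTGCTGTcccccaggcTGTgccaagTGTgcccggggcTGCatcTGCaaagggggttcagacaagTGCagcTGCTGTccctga
Mt2: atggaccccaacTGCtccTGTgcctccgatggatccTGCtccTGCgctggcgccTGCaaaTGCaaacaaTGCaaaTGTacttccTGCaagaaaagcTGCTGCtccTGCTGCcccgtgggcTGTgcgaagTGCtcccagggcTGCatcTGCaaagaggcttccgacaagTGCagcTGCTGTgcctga
Mt1: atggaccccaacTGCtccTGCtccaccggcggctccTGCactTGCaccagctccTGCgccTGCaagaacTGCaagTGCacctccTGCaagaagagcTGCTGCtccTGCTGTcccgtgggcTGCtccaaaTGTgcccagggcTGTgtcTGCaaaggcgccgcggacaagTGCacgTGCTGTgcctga
Mt4 lies on the plus strand at chr8:94137197-94139031 and has 3 exons and a coding sequence of 189 bases. Its 62 codons before the stop include 20 cysteine codons, 12 of them TGC and 8 TGT, or 32.3% of all codons. Mt2 (chr8:94172664-94173568) and Mt1 (chr8:94179082-94180327) also lie on the plus strand with 3 exons each, and each has 61 codons with 20 for cysteine, 16 of them TGC and 4 TGT. In pairwise alignment the coding sequences of Mt2 and Mt1 were identical at 79.6% of positions, those of Mt4 and Mt2 at 73.2% and those of Mt4 and Mt1 at 66.8%. The longest run of bases shared by any pair of transcripts was 20 bases, between Mt2 and Mt1. Reads longer than such a run can be assigned to one of the genes, but how the authors' counting treated reads with several matches is not given in the sources used here.

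Mt4 separated the benzamil libraries from all the others. In benzamil libraries 1 to 4 it had 232, 198, 61 and 89 reads, which gave 704, 661, 407 and 707 CPM. In DMSO libraries 1 to 4 it had 49, 9, 46 and 33 reads, or 50.9, 24.3, 169 and 91.6 CPM. Untreated libraries 1 and 2 had 11 and 13 reads, or 148 and 193 CPM. Every benzamil library lay above every DMSO and untreated library, and the lowest, benzamil 3, was still above the highest of the others, untreated 2. The DMSO libraries spread most, with a highest level 6.96 times the lowest against 1.74 times in benzamil and 1.30 times in untreated skin, and 1 of them, DMSO 3, lay between both untreated values. Benzamil 3, the benzamil library lowest in Mt4, also had the highest ribosomal RNA share of all libraries, 45.7%, and the lowest TMM factor, 0.750. With ribosomal RNA left out, the log2 folds for benzamil over DMSO were 3.00 for Mt4, -0.84 for Mt2 and -0.33 for Mt1, as with it.

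Mt4 averaged 619.6 ± 143 CPM in benzamil (SD, n = 4), 84.0 ± 63.2 CPM in DMSO (SD, n = 4) and 170.4 ± 31.6 CPM in untreated skin (SD, n = 2). The fitted log2 fold change of benzamil over DMSO was 3.00 ± 0.32 (SE), an 8.00-fold higher level. It was number 2 among the increases of all 5245 genes and number 30 by size in either direction. Benzamil over untreated gave 1.87 ± 0.49, number 469 among the increases, and DMSO over untreated -1.13 ± 0.55, in which the groups overlapped. These folds and ranks are descriptions without a test, because measured values were used when the genes were chosen. Across all genes tested, edgeR's quasi-likelihood test called 22% in benzamil over DMSO (Benjamini-Hochberg adjusted p under 0.05), 18.4% in DMSO over untreated and 4% in benzamil over untreated. The groups did not overlap for 24.5% of genes in benzamil over DMSO, 48% in DMSO over untreated and 32.4% in benzamil over untreated. In the authors' deposited table the log2 fold of Mt4 for benzamil over DMSO was 1.96 ± 0.38 (SE), a smaller value in the same direction, and for untreated over DMSO, as that table is coded, it was 0.82 ± 0.57. How the authors' fold changes were estimated beyond the use of DESeq2 is not given in the sources used here.

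**Figure D1:**
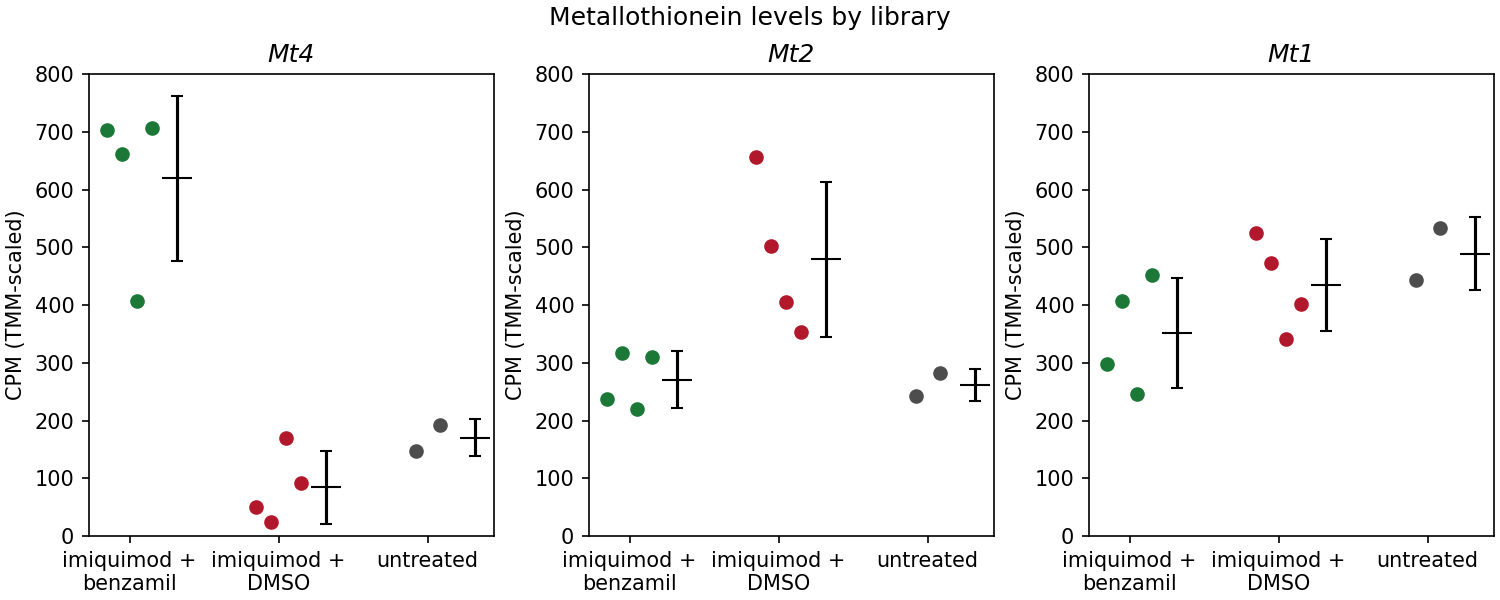
Levels of Mt4, Mt2 and Mt1 in each library (CPM, TMM-scaled), with 1 point per library, benzamil left of DMSO and untreated, and bars at the group means. Mt4 lies at 407 to 707 CPM in benzamil against at most 193 CPM elsewhere, Mt2 is highest in the 4 DMSO libraries, and Mt1 overlaps between all groups.

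Mt2 had the reverse order between the treated groups. Benzamil libraries 1 to 4 had 78, 95, 33 and 39 reads, or 237, 317, 220.1 and 309.7 CPM. DMSO libraries 1 to 4 had 632, 186, 110 and 127 reads, or 657, 502.4, 405 and 353 CPM, and untreated libraries 1 and 2 had 18 and 19 reads, or 242 and 282 CPM. All 4 DMSO libraries lay above every benzamil and untreated library, with DMSO 1 the highest. Both untreated values lay within the range of the benzamil libraries.

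Mt2 averaged 271 ± 49.7 CPM in benzamil, 479 ± 134 CPM in DMSO (SD, n = 4 each) and 262 ± 27.9 CPM in untreated skin (SD, n = 2). Benzamil over DMSO had a log2 fold change of -0.84 ± 0.21, DMSO over untreated one of 0.89 ± 0.32, and benzamil over untreated one of 0.05 ± 0.34 (SE). The last has an error larger than its size, and its sign turned in 6 of 18 other ways of fitting. The authors' deposited table gave a log2 fold of -0.79 ± 0.22 for benzamil over DMSO and -0.93 ± 0.37 for untreated over DMSO.

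Mt1, the member closest to Mt2 in sequence, showed no separation of groups. Benzamil libraries 1 to 4 had 98, 122, 37 and 57 reads, or 297, 407, 247 and 453 CPM. DMSO libraries 1 to 4 had 505, 175, 93 and 145 reads, or 525, 473, 342 and 403 CPM, and untreated libraries 1 and 2 had 33 and 36 reads, or 444 and 534 CPM. The ranges of all 3 groups overlapped. Group means were 351 ± 95.3 CPM in benzamil, 436 ± 79.9 CPM in DMSO (SD, n = 4 each) and 489 ± 63.5 CPM in untreated skin (SD, n = 2). Its log2 fold change was -0.33 ± 0.21 for benzamil over DMSO, -0.48 ± 0.29 for benzamil over untreated and -0.15 ± 0.28 for DMSO over untreated, whose sign turned in 2 of 20 other ways of fitting. The comparisons with DMSO use the same DMSO libraries, so their folds are not independent of each other. In the authors' deposited table the log2 fold of Mt1 was -0.32 ± 0.21 for benzamil over DMSO and 0.05 ± 0.30 for untreated over DMSO.

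Ratios of reads within 1 library do not depend on how libraries are scaled. Mt4 reads per Mt1 read were 2.37, 1.62, 1.65 and 1.56 in benzamil libraries 1 to 4. They were 0.0970, 0.0514, 0.495 and 0.228 in DMSO libraries 1 to 4, and 0.333 and 0.361 in the untreated pair. The ratio was thus higher in each benzamil library than in any DMSO or untreated library. The exact 95% interval was 1.11 to 2.22 in the lowest benzamil library, benzamil 4, and 0.340 to 0.712 in the highest DMSO library, DMSO 3, and it covers counting error within a library only. The mean log2 ratio was 0.82 ± 0.28 in benzamil, -2.67 ± 1.40 in DMSO (SD, n = 4 each) and -1.49 ± 0.08 in untreated skin (SD, n = 2).

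Mt2 reads per Mt1 read were 0.796, 0.779, 0.892 and 0.684 in benzamil libraries 1 to 4. The ratio was 1.25, 1.06, 1.18 and 0.876 in DMSO libraries 1 to 4, and 0.545 and 0.528 in the untreated pair. The untreated ratios were the lowest of all, while the highest benzamil ratio, 0.892, just exceeded the lowest DMSO ratio, 0.876. The mean log2 ratio was -0.35 ± 0.16 in benzamil, 0.12 ± 0.23 in DMSO (SD, n = 4 each) and -0.88 ± 0.03 in untreated skin (SD, n = 2). Each untreated ratio rests on fewer than 40 reads of either gene, with an exact interval of 0.289 to 0.997 in untreated 1.

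**Figure D2:**
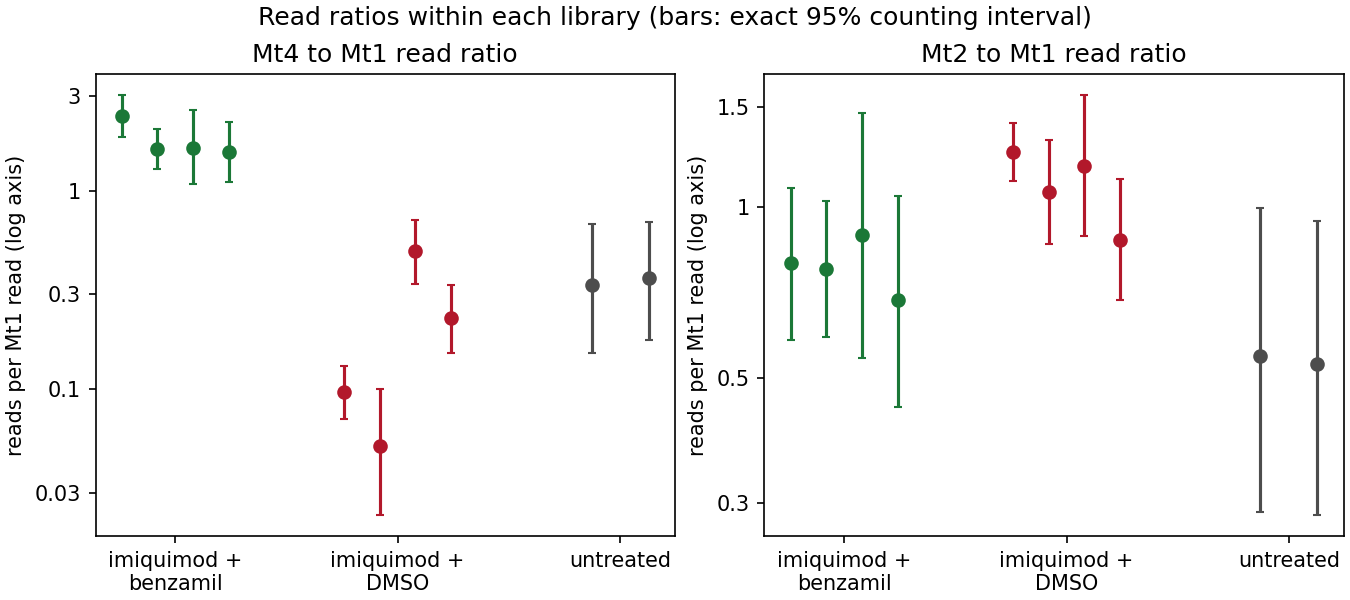
Reads of Mt4 (left) and Mt2 (right) per read of Mt1 in each library, on log axes, with bars for the exact 95% interval of counting error. Mt4 per Mt1 is 1.56 or more in the 4 benzamil libraries and 0.495 or less in all others, and Mt2 per Mt1 is lowest in the 2 untreated libraries.

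Mt4 is a gene of differentiating keratinocytes, and other genes of that state were also at higher summed levels in benzamil. Over 18 differentiated keratinocyte markers, all present in both tables and none at 0 throughout a group, summed levels were 69612 to 86930 CPM in benzamil, 24574 to 47572 CPM in DMSO and 20795 to 27319 CPM in untreated skin. Mt4 reads per 1000 reads of this list were 9.60, 9.50, 4.68 and 8.94 in benzamil libraries 1 to 4, 1.08, 0.989, 3.56 and 2.29 in DMSO libraries 1 to 4, and 7.12 and 7.06 in the untreated pair. The benzamil and DMSO libraries stayed apart on this scale, and both untreated values lay within the benzamil range and above all DMSO values. The means were 8.18 ± 2.35 in benzamil, 1.98 ± 1.21 in DMSO (SD, n = 4 each) and 7.09 ± 0.04 in untreated skin (SD, n = 2). The nearest benzamil and DMSO values, those of benzamil 3 and DMSO 3, rest on 61 and 46 Mt4 reads. Those of the untreated pair rest on 11 and 13. No counting interval was computed on this scale, so whether the libraries differ beyond counting error was not tested. In bulk skin, fewer cells of a type and less RNA per cell cannot be told apart.

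**Figure D3:**
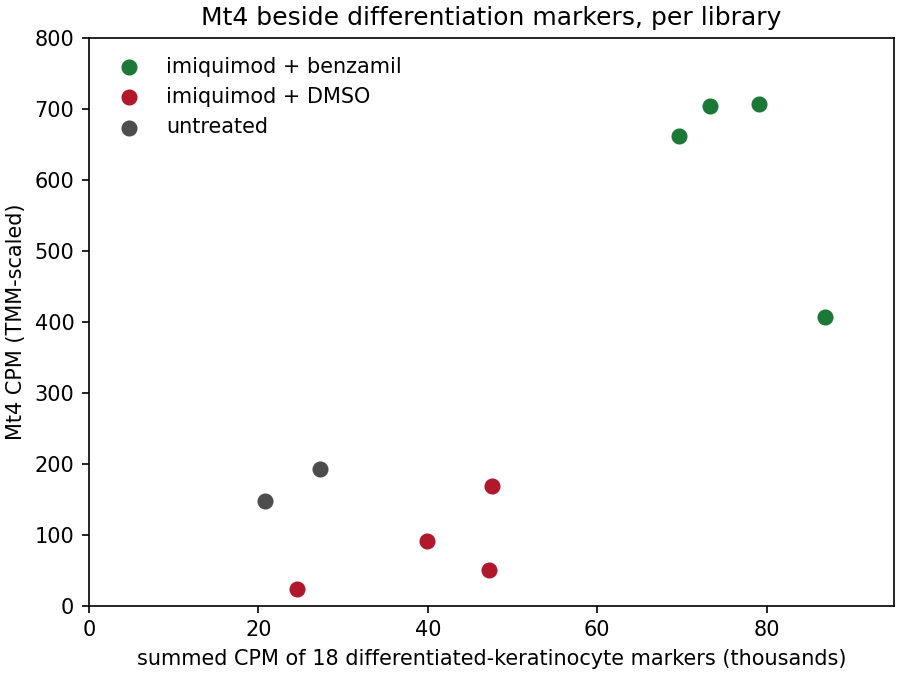
Mt4 level against the summed level of 18 differentiated keratinocyte markers in each library (CPM). The benzamil libraries are high on both axes, with summed marker levels of 69612 CPM or more, and the untreated libraries have more Mt4 than most DMSO libraries at summed marker levels of 27319 CPM or less.

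Markers of other cell states differed between the same groups. Summed levels of 8 stress keratinocyte markers were 1961 to 7894 CPM in benzamil, 10355 to 17140 CPM in DMSO and 202 to 267 CPM in untreated skin, where Sprr1b and Stfa1 were at 0. Of 7 neutrophil markers (Cxcr2, Csf3r, Mmp9, Retnlg, Ly6g, S100a8 and S100a9), 4 were in both tables. Their summed levels were 213 to 4249 CPM in benzamil, with Retnlg at 0, and 11029 to 18324 CPM in DMSO. In untreated skin they were 44.5 to 215 CPM, with Cxcr2 and Retnlg at 0. These sums were not split by gene, so they are not a measure of neutrophil content. The order DMSO over benzamil in both lists is that of Mt2, and also that of the 635 genes called lower in benzamil over DMSO. The likeness does not extend to untreated skin. There the summed stress markers lay below every benzamil library, while Mt2 lay within the benzamil range. Summed levels of 6 of 7 sebaceous gland markers were 5092 to 8450 CPM in benzamil, 1868 to 3539 CPM in DMSO and 6318 to 9085 CPM in untreated skin. Of 7 fibroblast markers, all present, summed levels were 700.5 to 2208 CPM in benzamil, 525 to 1034 CPM in DMSO and 8261 to 18924 CPM in untreated skin, and 10 skeletal muscle markers gave 683 to 1586 CPM in benzamil, 186 to 1181 CPM in DMSO and 2937 to 3325 CPM in untreated skin. The part of these lists in the metallothionein levels was not tested. Leaving out benzamil libraries 3 and 4 gave log2 folds for benzamil over DMSO of 3.19 for Mt4, -0.77 for Mt2 and -0.28 for Mt1.

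Pearson correlation of log2 CPM with every other gene tested gave the genes whose levels ran closest to each member. These r values describe 8 libraries in 2 treated groups, which share the group difference and their depth, and they carry no test. Over the 8 imiquimod-treated libraries, the genes nearest to Mt4 were Osbpl5 (r = 0.990), Sptbn1 (0.985), Thra (0.985), Atp2b4 (0.984), Hal (0.977) and Dapl1 (0.972). Hal, histidine ammonia-lyase, which makes urocanic acid in the upper epidermis, averaged 870.4 ± 41.6 CPM in benzamil, 300.1 ± 68.9 CPM in DMSO (SD, n = 4 each) and 275 ± 8.91 CPM in untreated skin (SD, n = 2). Thra, a thyroid hormone receptor, averaged 75.5 ± 11.3 CPM in benzamil, 30.1 ± 9.74 CPM in DMSO and 198 ± 13.6 CPM in untreated skin, and so was highest in untreated skin, where Mt4 was not. Over all 10 libraries the nearest genes to Mt4 were others, namely Fam110a (0.940), Appl2 (0.938), Serpinb6d (0.938), Pla2g4f (0.925), Micu2 (0.923) and Aif1l (0.922).

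For Mt2 over the 8 treated libraries these genes were Cdc20 (0.976), Sprr1a (0.973), Klk10 (0.973), Dnaja1 (0.970), Sprr1b (0.969) and Psmc6 (0.964). Sprr1b, a cornified envelope precursor of stressed epidermis and 1 of the stress markers above, averaged 251 ± 128 CPM in benzamil and 884 ± 332 CPM in DMSO (SD, n = 4 each), with 0 reads in untreated skin. Cdc20, an activator of the mitotic anaphase-promoting complex, averaged 14.9 ± 8.31 CPM in benzamil and 53.6 ± 21.0 CPM in DMSO and was likewise at 0 in untreated skin. Over all 10 libraries the genes nearest to Mt2 were Celf1 (0.947), Epgn (0.945), Nap1l1 (0.922), Copb2 (0.919), Degs1 (0.915) and Atp5c1 (0.915). Epgn, the growth factor epigen, averaged 6.40 ± 6.89 CPM in benzamil and 87.0 ± 52.9 CPM in DMSO and had 0 reads in untreated skin.

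For Mt1 they were Nup88 (0.983), Ndufb6 (0.957), Tpx2 (0.954), Cox7a2 (0.9503), Litaf (0.948) and Ubqln1 (0.947) over the treated libraries, and Mcfd2 (0.933), Glrx5 (0.883), Cnih1 (0.875), Nfkb1 (0.872), Tceal8 (0.868) and Septin11 (0.861) over all 10. Nup88, a nuclear pore protein, averaged 29.3 ± 8.88 CPM in benzamil and 39.0 ± 10.7 CPM in DMSO (SD, n = 4 each). It was lowest in untreated skin at 6.73 ± 9.52 CPM (SD, n = 2), where Mt1 had its highest mean. Between the members, r over the 8 treated libraries was 0.82 for Mt2 with Mt1, -0.82 for Mt4 with Mt2 and -0.53 for Mt4 with Mt1. Over all 10 libraries it was 0.55 for Mt2 with Mt1, -0.72 for Mt4 with Mt2 and -0.49 for Mt4 with Mt1.

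The promoters of the genes were searched for known motifs because the folds of Mt4 and Mt2 for benzamil over DMSO had opposite signs. Whether any motif bears on those folds was not tested. The windows are the 250 bases before the transcript start of a RefSeq promoter table on GRCm38.p6, plus strand, with metal response element cores (TGCACNC or TGCGCNC, either strand) in capitals. They run at chr8:94136954-94137203 for Mt4, chr8:94172368-94172617 for Mt2 and chr8:94178839-94179088 for Mt1.
Mt4: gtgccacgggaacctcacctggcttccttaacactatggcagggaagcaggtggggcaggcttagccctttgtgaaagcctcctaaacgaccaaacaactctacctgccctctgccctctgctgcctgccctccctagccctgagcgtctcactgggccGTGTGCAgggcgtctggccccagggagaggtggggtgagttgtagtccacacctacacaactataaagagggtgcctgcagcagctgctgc
Mt2: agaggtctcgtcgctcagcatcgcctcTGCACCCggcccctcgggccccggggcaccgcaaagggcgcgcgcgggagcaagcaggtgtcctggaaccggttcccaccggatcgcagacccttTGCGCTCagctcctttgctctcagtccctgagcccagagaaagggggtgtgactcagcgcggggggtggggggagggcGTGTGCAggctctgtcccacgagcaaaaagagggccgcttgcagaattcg
Mt1: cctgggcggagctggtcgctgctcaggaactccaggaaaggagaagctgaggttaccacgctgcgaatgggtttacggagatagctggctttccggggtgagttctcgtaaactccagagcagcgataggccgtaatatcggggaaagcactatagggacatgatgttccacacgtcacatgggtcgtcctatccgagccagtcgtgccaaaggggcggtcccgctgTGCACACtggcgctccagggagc
The Mt4 window held 1 core, on the minus strand 91 to 85 bases before the start. The Mt2 window held 3, at 223 to 217 and 128 to 122 bases on the plus strand and 50 to 44 bases on the minus strand. The Mt1 window held 1, at 23 to 17 bases. Bases beyond these windows, on either side, were not searched, so the counts are not totals for a gene's promoter. Of 27025 mouse promoters of this length, 21.3% held at least 1 such core and 1.28% at least 3. Of the 4136 that belong to genes tested here, 31.1% held at least 1 and 2.61% at least 3.

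Other motifs were also searched on both strands. The TATA box TATAAA was found in the Mt4 window at 30 to 25 bases and in 13.0% of all promoters. The Mt2 window held TGACTCA, the AP-1 site, at 79 to 73 bases, a motif of 4.43% of promoters, overlapping a TGACNNNGC match of the antioxidant response core, found in 10.2%. GGGCGG, the GC box, occurred at 247 to 242 and 37 to 32 bases in Mt1 and in 32.9% of promoters. The STAT-type motif TTCNNNGAA, in 7.18% of promoters, and the full palindrome of the glucocorticoid response element, in 0.0037%, were not in these windows. That palindrome was in 0% of the promoters of tested genes, so its absence says nothing about glucocorticoid control of these genes. Among promoters of tested genes, the share was 6.87% for the TATA box, 3.19% for the AP-1 site, 12.7% for the antioxidant core, 63.8% for the GC box and 5.49% for the STAT-type motif. Annotated starts differ. The RefSeq gene record of Mt1 begins 206 bases before the start used for its window, so only 44 bases of that window lie ahead of the whole gene, and the positions given for Mt1 hold for the later start. The GENCODE transcript of Mt2 begins 46 bases beyond the end of its window, and those of Mt4 and Mt1 begin inside theirs.

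The genes sit close together on chromosome 8, within 43.1 kb from the start of Mt4 to the end of Mt1. The 10 nearest genes tested, 5 on each side, lay 34.2 to 2469 kb away. In benzamil over DMSO, 3 of the 10 passed the test against 22% of all genes, and the nearest, Nup93, a nuclear pore protein 34.2 kb away, did not (log2 fold -1.13 ± 0.42, edgeR adjusted p 0.055). Capns2, a calpain small subunit 1235 kb away, was higher in benzamil at 627 CPM against 265 CPM in DMSO (log2 fold 1.25 ± 0.21, adjusted p 0.000155). Herpud1, a protein of the endoplasmic reticulum stress response, was lower at 64.3 CPM in benzamil against 127 CPM in DMSO (-0.96 ± 0.26, adjusted p 0.0104), and Irx3, a homeobox factor, was lower at 137 CPM in benzamil against 231 CPM in DMSO (-0.81 ± 0.23, adjusted p 0.0133). Without DMSO library 1, Herpud1 had an adjusted p of 0.0711 and Irx3 of 0.0723, without benzamil library 1 Irx3 had 0.0585, and without benzamil libraries 3 and 4 Herpud1 had 0.0917. In DMSO over untreated, 1 of 10 passed against 18.4% of all genes, and Irx3 was higher (1.36 ± 0.42, adjusted p 0.0235), with an adjusted p of 0.0547 without DMSO library 1 and 0.154 without untreated library 2. In benzamil over untreated 0 of 10 passed with edgeR or DESeq2, against 4% of all genes with edgeR, and 1 had an unadjusted p under 0.05 with each tool.

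Other genes of metal handling were counted from a list of 60 zinc, copper and iron genes, of which 44 were in both tables and 23 passed the filter on low counts. In benzamil over DMSO 4 were higher and 3 lower, or 7 of 23 against 22% of all genes, and the median log2 fold was 0.10 against -0.01 over all genes. The balance of directions depended on the method. With library totals in place of TMM 1 was higher and 4 lower, and with DESeq2's Wald test 2 were higher and 3 lower. Without DMSO library 1 the edgeR count was 4, and without benzamil libraries 3 and 4 it was 2. In DMSO over untreated 3 were higher and 0 lower, 3 of 23 against 18.4% of all genes (median 0.37 against 0.18), and without untreated library 1 edgeR called 0 of them, with 5 at an unadjusted p under 0.05. DESeq2's Wald test called 2 of them in this comparison and limma on the deposited values 5. In benzamil over untreated 1 was higher and 0 lower, 1 of 23 against 4% of all genes (median 0.24 against 0.17).

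**Figure D4:**
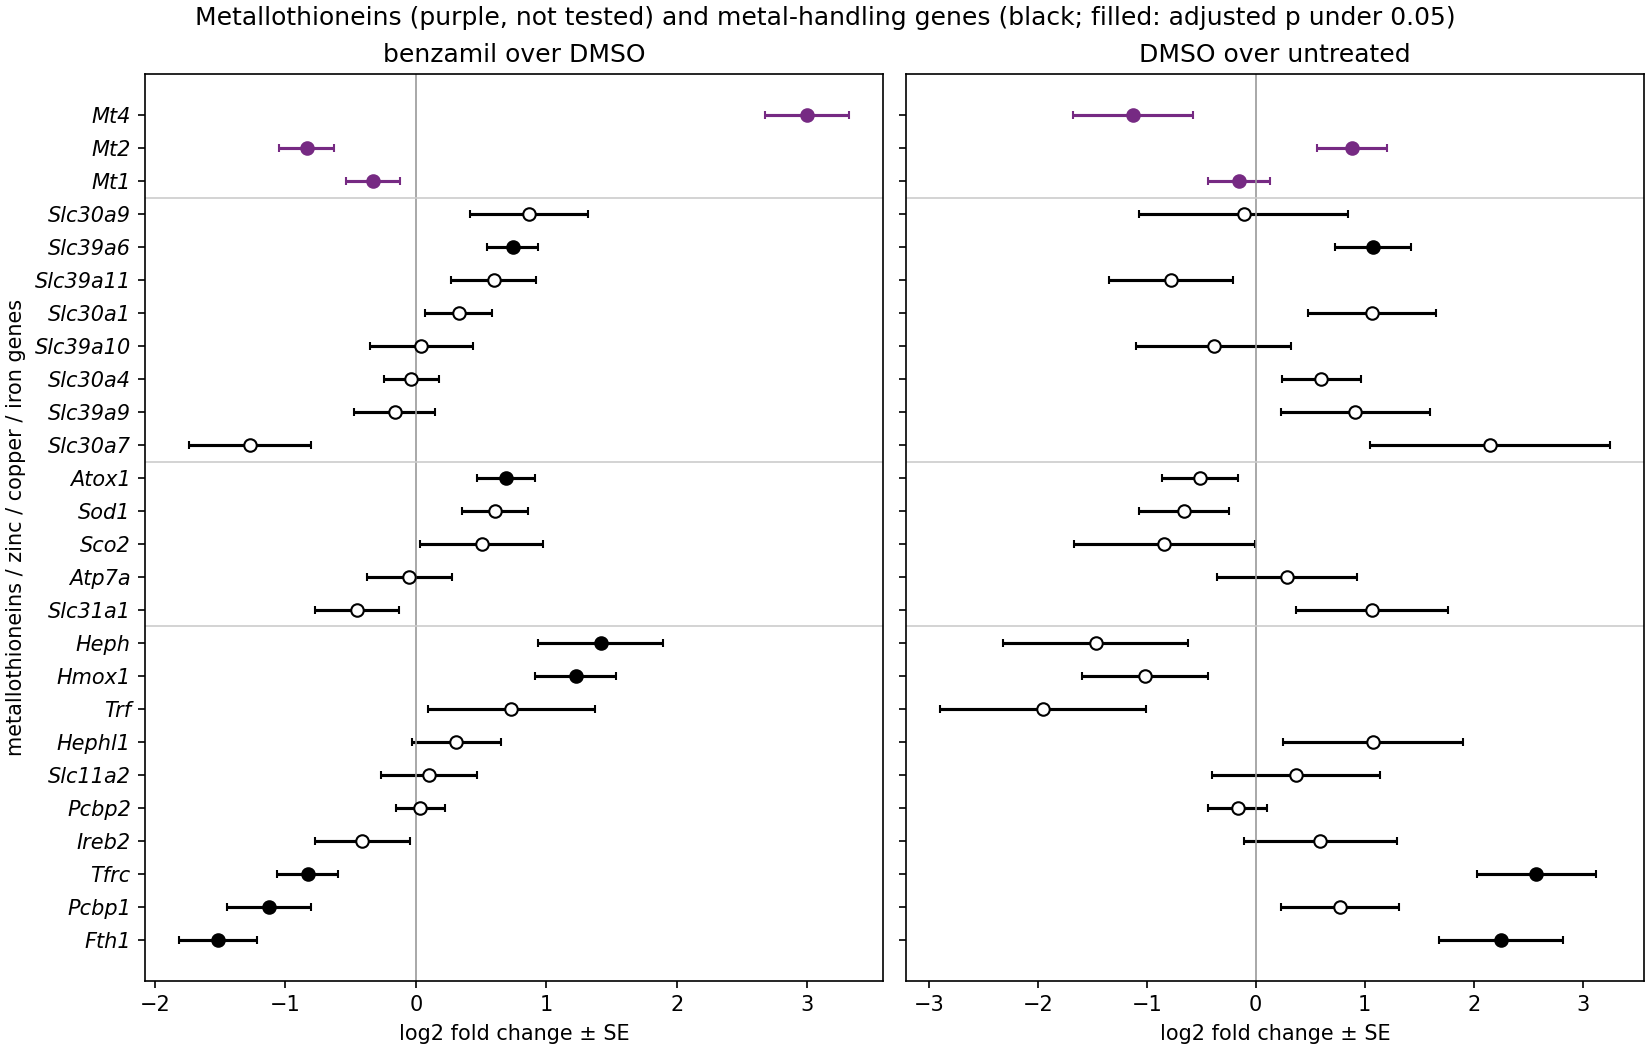
Log2 fold change with bars of 1 SE for the metallothioneins (purple) and the 23 zinc, copper and iron genes tested (black, filled where the adjusted p is under 0.05), benzamil over DMSO on the left and DMSO over untreated on the right. In benzamil over DMSO, Mt4 lies farthest to the higher side at 3.00 and Fth1 farthest to the lower side at -1.52.

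Among 8 zinc genes tested of 25 listed, 1 was called in each comparison. Of all genes, 22% were called in benzamil over DMSO, 18.4% in DMSO over untreated and 4% in benzamil over untreated. The zinc gene called was Slc39a6, a zinc importer. Its level was 434, 411, 527 and 548 CPM in benzamil libraries 1 to 4, 234, 338, 243 and 325 CPM in DMSO libraries 1 to 4, and 135 and 133 CPM in the untreated pair. The 3 groups did not overlap. It was higher in benzamil than in DMSO (log2 fold 0.74 ± 0.19, edgeR adjusted p 0.0073) and than in untreated skin (1.82 ± 0.34, adjusted p 0.00238), and higher in DMSO than in untreated skin (1.08 ± 0.35, adjusted p 0.032). With library totals in place of TMM the adjusted p of benzamil over DMSO was 0.0947 and without benzamil libraries 3 and 4 it was 0.0731. The call of DMSO over untreated was lost in 7 of 20 alternatives, with an adjusted p of 0.0549 in DESeq2's Wald test and 0.0704 under a filter of 20 reads in 2 libraries. It had an adjusted p of 0.0606 without DMSO library 2, 0.0552 without DMSO library 4, 0.123 without untreated library 1 and 0.0919 without untreated library 2. Slc30a1, the zinc exporter that is a known Mtf1 target, averaged 89.8 ± 25.4 CPM in benzamil and 73.0 ± 9.67 CPM in DMSO (SD, n = 4 each) and did not pass (log2 fold 0.33 ± 0.26, edgeR adjusted p 0.381). In untreated skin it averaged 35.0 ± 7.58 CPM (SD, n = 2). Benzamil over untreated (1.40 ± 0.58, adjusted p 0.183) and DMSO over untreated (1.07 ± 0.59, adjusted p 0.206) did not pass either. Mtf1 itself was not among the genes tested.

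Among 10 iron genes tested of 21 listed, 2 were higher and 3 lower in benzamil over DMSO, in which 22% of all genes were called. Hmox1, the haem-degrading oxygenase, had 78.9, 56.8, 86.7 and 79.4 CPM in benzamil libraries 1 to 4 and 32.2, 32.4, 14.7 and 41.6 CPM in DMSO libraries 1 to 4. All benzamil libraries were above all DMSO libraries (log2 fold 1.23 ± 0.31, edgeR adjusted p 0.00634), and the call held in all 20 alternatives. The untreated pair had 53.8 and 74.2 CPM of Hmox1. Neither benzamil (log2 fold 0.21 ± 0.54) nor DMSO (-1.02 ± 0.58) was called against untreated skin. Fth1, the ferritin heavy chain, had 115, 157, 53.4 and 63.5 CPM in benzamil libraries 1 to 4 and 456, 270.1, 316 and 149.9 CPM in DMSO libraries 1 to 4. Benzamil 2 lay just above DMSO 4, so the groups overlapped, and the difference passed the test (-1.52 ± 0.30, adjusted p 0.0008) in all 20 alternatives too. Fth1 has many processed pseudogenes that can share its reads.

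Tfrc, the transferrin receptor, averaged 91.8 ± 22.8 CPM in benzamil and 171 ± 18.7 CPM in DMSO (SD, n = 4 each), and was lower in benzamil (log2 fold -0.83 ± 0.23, edgeR adjusted p 0.0121), with an adjusted p of 0.136 without benzamil libraries 3 and 4. Pcbp1, an iron chaperone, was lower (-1.13 ± 0.32, adjusted p 0.0133), with an adjusted p of 0.0506 without benzamil library 3, 0.0875 without DMSO library 1 and 0.188 without benzamil libraries 3 and 4. Those 2 benzamil libraries had 3 Pcbp1 reads each, or 20.01 and 23.8 CPM, against 97.1 and 103.5 CPM in benzamil 1 and 2. Heph, a multicopper ferroxidase, was higher (1.42 ± 0.48, adjusted p 0.0355), but its call was lost in 8 of 19 alternatives. Those, with the adjusted p in parentheses, included leaving out benzamil library 1 (0.0767), benzamil library 4 (0.169), DMSO library 1 (0.181) or DMSO library 2 (0.0639). The untreated pair had 53.8 and 44.5 CPM of Heph. Neither benzamil (log2 fold -0.05 ± 0.77) nor DMSO (-1.47 ± 0.85) was called against untreated skin. In DMSO over untreated, in which 18.4% of all genes were called, Tfrc (2.58 ± 0.55, adjusted p 0.00189) and Fth1 (2.25 ± 0.57, adjusted p 0.00755) were higher. These folds rest on few untreated reads, 1 and 3 of Tfrc and 4 and 5 of Fth1 in untreated libraries 1 and 2. Without untreated library 1 the adjusted p was 0.0569 for Tfrc and 0.079 for Fth1.

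Among 5 copper genes tested of 14 listed, 1 was called in benzamil over DMSO, against 22% of all genes. Atox1, a copper chaperone, averaged 282 ± 88.9 CPM in benzamil and 169 ± 35.4 CPM in DMSO (SD, n = 4 each) and was higher in benzamil (log2 fold 0.69 ± 0.23, edgeR adjusted p 0.0288). That call was lost in 7 of 20 alternatives, among them (adjusted p in parentheses) without benzamil library 3 (0.0588), benzamil library 4 (0.123), DMSO library 1 (0.0566) or DMSO library 2 (0.108). The untreated pair had 202 and 282 CPM of Atox1. Neither benzamil (log2 fold 0.18 ± 0.35) nor DMSO (-0.51 ± 0.35) was called against untreated skin. Of 7 glucocorticoid-responsive genes tested of 13 listed, 1 was called in each comparison. Of all genes, 22% were called in benzamil over DMSO, 18.4% in DMSO over untreated and 4% in benzamil over untreated. The gene called was Zbtb16, a transcription factor induced by glucocorticoids. It had 5, 5, 1 and 0 reads in benzamil libraries 1 to 4, 3, 0, 0 and 0 in DMSO libraries 1 to 4, and 7 and 6 in the untreated pair. The untreated libraries, although the shallowest, had the most reads. The ratio of summed levels was 7.96 for benzamil over DMSO (exact 95% counting interval 2.10 to 44.4), 0.133 for benzamil over untreated (0.0537 to 0.321) and 0.0166 for DMSO over untreated (0.00304 to 0.0606). The edgeR adjusted p was 0.0306 for benzamil over DMSO, 0.0291 for benzamil over untreated and 0.000109 for DMSO over untreated. Zbtb16 passed the filter on low counts only through the untreated pair, where it had 94.2 and 89.0 CPM. Its highest level was 16.7 CPM in benzamil and 3.12 CPM in DMSO. A gene kept through the group where it is high tends to be lower elsewhere, so its calls against untreated skin are descriptions. The call of benzamil over DMSO was lost in 6 of 18 alternatives, among them, by adjusted p, without benzamil library 1 (0.0970) or 2 (0.0974) and without DMSO library 2 (0.0622), 3 (0.0564) or 4 (0.0528). That of benzamil over untreated was lost in 5 of 17, among them without benzamil library 3 (0.0572), untreated library 1 (0.158) or untreated library 2 (0.130). That of DMSO over untreated held in all 19.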

How the data were processed

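RNA of 10 mouse skin libraries (500 ng each) went into a 3' mRNA kit with unique molecular identifiers, per the labels. STAR, featureCounts, DESeq2 and mm10 are named in the submitters' processing notes, without versions, and the sources used here say nothing of the counting strand or of collapsing identifiers. The authors deposited log2 values (variance-stabilised) in 2 tables, each normalized on its own, of 10653 genes with benzamil and DMSO libraries and 9820 genes with untreated and DMSO libraries. They also deposited DESeq2 tables with a mean signal (counts over size factors), a log2 fold, a Wald score, and p-values. From those tables the log2 fold with its error is printed, and scores and p-values were not used. A further deposited table holds counts for 61533 human and 0 mouse identifiers and entered no comparison.

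The log2 values were inverted to reads. In every library 100% came out whole within 0.001 reads, and for the DMSO libraries both tables gave the same reads in 39116 of 39116 cases. The 9779 shared genes were joined, which left out 874 and 41. Because the deposited unit is log2, the test on recovered reads was paired with limma on the deposited values as an alternative. The test was edgeR 4.0.16 in R 4.3.3 (TMM, filterByExpr with a minimum of 10 reads, quasi-likelihood fit of 10 libraries with a mean per group), with Benjamini-Hochberg adjustment over 5245 genes and a threshold of 0.05. Alternatives used DESeq2 1.42.0, limma 3.58.1, other scalings and filters, ribosomal RNA left out, a replicate block, and libraries left out. Ratios within a library added 0.5 reads to each gene for the log2 means, and their intervals are exact, cover counting error only and have a confidence level of 95%. Correlations used log2 CPM with a prior count of 2.

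The genes and the gene lists were chosen with earlier results of these data known. Named are the 3 members, up to 3 called genes per list, direction and comparison with the largest fold, the 6 genes most correlated with each member over 10 and over 8 libraries, and the nearest tested genes, 5 a side. Slc30a1 and the genes described within the correlated sets were picked for their known roles after the values were seen. Sequences come from RefSeq (GRCm38.p6, all 3 members matched) and GENCODE M21 with Biopython 1.88, and protein sequences were not used here.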

Additional observations from a re-analysis of the deposited data

Results flagged for a closer look

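Among 26 groups of 4 libraries looked at, 3 had a library far from the other 3 by Dixon's criterion at 95%, which chance gives in about 1 group in 20. Mt4 in benzamil library 3 was 407 CPM, against 661 to 707 CPM in the other benzamil libraries. The Mt4 to Mt1 read ratio in benzamil library 1 was 2.37, against 1.56 to 1.65 in the others. Zbtb16 in DMSO library 1 was 3.12 CPM, which is 3 reads, with 0 reads in the other DMSO libraries. With 3 libraries at 0, any read in the other library meets the criterion, so this one says nothing beyond those reads.

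The deposited count table with human identifiers, which no comparison uses, held 12 human metallothionein genes, of which 5 had any read. MT2A had 1 read over the 4 benzamil libraries, 39 reads over the 4 DMSO libraries (28, 4, 3 and 4), and 0 in the untreated libraries. The table's library totals were 15613 to 43854 reads in benzamil, 35958 to 136930 in DMSO, and 10394 and 8752 in untreated skin. How reads of mouse skin came to be counted on human identifiers was not tested.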

How the results depend on the processing

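The folds of Mt4 in all 3 comparisons, and those of Mt2 and Mt1 for benzamil over DMSO, kept their sign in every alternative run. Mt4 for benzamil over DMSO ranged from 2.42 (limma on deposited values) to 3.50 (without DMSO library 3), and Mt2 from -1.09 to -0.63. Signs turned for Mt2 in benzamil over untreated (-0.11 to 0.25) and for Mt1 in DMSO over untreated (-0.35 to 0.09), both near 0. Scaling by library totals moved the median log2 fold of all genes by -0.26, 0.10 and -0.17 in benzamil over DMSO, DMSO over untreated and benzamil over untreated.

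Genes called in benzamil over DMSO numbered 1155 (520 higher, 635 lower). They were 584 without benzamil libraries 3 and 4, 647 (without DMSO 1) to 1413 when 1 library was left out, and 248 higher against 1009 lower with library totals. In DMSO over untreated 964 were called (521 higher, 443 lower), 1506 with limma (1057 higher, 449 lower), 708 higher against 343 lower with no filter, 329 against 487 with DESeq2's Wald test, and 433 (without untreated 1) to 979 with 1 library left out. In benzamil over untreated 210 were called (128 higher, 82 lower), 137 without benzamil 3 and 4, 99 (without untreated 1) to 233 with 1 left out, 114 without untreated 2, 63 higher against 105 lower with totals, 81 against 125 with DESeq2's Wald test, and 200 against 55 with no filter. The metal-handling list had 7 called in benzamil over DMSO, 2 without benzamil 3 and 4 and 4 to 9 with 1 library left out. In DMSO over untreated it had 3, 5 with limma and 0 to 3 with 1 library left out. The cause of these shifts was not tested.

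Libraries with the same number did not deviate together throughout (r of 0.00 to 0.07 between benzamil and DMSO, -0.12 and -0.01 between DMSO and untreated, -0.11 and 0.12 between benzamil and untreated), and 2 of 4 benzamil libraries correlated best with their own number. With a replicate block 1059, 963 and 147 genes were called in benzamil over DMSO, DMSO over untreated and benzamil over untreated, and Mt4 had folds of 3.10, -1.41 and 1.68. Under the block the adjusted p was 0.0656 for Slc39a6 in DMSO over untreated and 0.0992 for Zbtb16 in benzamil over untreated. Limma and the fit on a table's own genes were not run for benzamil over untreated, since those groups are in separate tables. A floor of 3 reads was 3.12 CPM in DMSO 1 and 44.5 CPM in untreated 2, so low levels in untreated skin are poorly resolved.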
